A study of Homo sapiens with 6 samples.

Results

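The elements described here are dREG peaks that lay inside an annotated gene, overlapped no exon, and had their interval more than 500 bp and at most 10 kb from the nearest annotated transcript start. They were found in the 3 deposited peak lists by position alone, with GENCODE release 29 on GRCh38 and chromosomes 1 to 22 and X. They numbered 2442 of 24707 peaks in the PRO-seq 1M list, 5616 of 38177 in the qPRO-seq 1M list and 1247 of 15562 in the qPRO-seq 250k list, or 9305 of 78446 peaks in all.

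The study set a streamlined run-on protocol (qPRO-seq) beside the published one (PRO-seq) in K562, an established human erythroleukaemia line. All cells were untreated, and 2 replicates per group were grown at least 3 passages apart. PRO-seq 1M libraries started from 1M permeabilized cells and used 3 affinity purifications and 11 PCR cycles. qPRO-seq 1M libraries used the same input and cycles with 1 purification, and qPRO-seq 250k libraries used 250k cells, 1 purification and 14 cycles. Adapters carried random tags of 6 nt, and reads were paired, 37 nt each. One deposited list stands for both replicates of a group. No value per replicate was used here, no difference could be set against replicate spread, and the 95% intervals below (Wilson for shares, Newcombe for differences of shares) cover counting error only. They treat neighbouring peaks as independent and so are too narrow. Where 3 values stand in a row, the first is PRO-seq 1M, the second qPRO-seq 1M and the third qPRO-seq 250k.

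In a nuclear run-on, engaged RNA polymerase adds a biotin-labelled nucleotide, so the 3′ end of each RNA marks a polymerase. dREG is a classifier that scores places where such reads diverge on both strands, the pattern left by initiation at promoters and at many enhancers. Introns near a gene's 5′ end are known to hold enhancers, alternative promoters and stretches where polymerase released from the promoter pauses or slows. A peak by itself does not tell these apart.

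The labels call K562 a lymphoblastoid line. Of 12 erythroid marker genes, 9, 10 and 9 had a peak within 500 bp of a start. Of 18 lymphoid marker genes, 3, 4 and 2 did, of 16 megakaryocyte markers 4, 4 and 3, and of 15 myeloid markers 4, 3 and 1. Over all 19864 protein-coding genes the share with such a peak was 52.9%, 54.5% and 44%. The depth of the libraries is unknown from the lists, and the lists differ in length.

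A small number of elements overlapped the promoter window of a RefSeq start although no GENCODE release 29 start lay within 500 bp of the peak, and for these the sequence before the RefSeq start can be shown. RefSeq promoter windows (250 bases before to 50 bases after a start, 34961 of them on these chromosomes) were overlapped by 58 (2.38%, 1.84 to 3.06%), 87 (1.55%, 1.26 to 1.91%) and 22 (1.76%, 1.17 to 2.66%) elements. Among deeper intronic peaks, beyond 10 kb from a start, the shares were 0.896%, 0.62% and 1%. In qPRO-seq 1M the peak centre lay a median of 110.5 bp from the RefSeq start, with quartiles of 53.5 and 182 bp. In the transcript's direction the median centre lay 79 bp before the start.

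An element of each of the 3 lists overlapped 16 of the windows considered, which belong to 15 RefSeq genes. The 250 bases before the start of 5 of them, chosen after their values were seen, are printed here 5′ to 3′ on the gene's strand to show how different these elements are in base composition. The sequences are RefSeq's, on GRCh38.p14. Of 11 motifs searched on both strands, these sequences match 5, and capitals mark the matches. They are the GATA motif (AGATAA or TGATAA), the E-box read by TAL1 (CAGATG or CAGCTG), the SP/KLF motif (GGGCGG), the NF-Y motif (CCAAT) and the RUNX motif (TGTGGT). Matches can overlap one another.
LOC124901072: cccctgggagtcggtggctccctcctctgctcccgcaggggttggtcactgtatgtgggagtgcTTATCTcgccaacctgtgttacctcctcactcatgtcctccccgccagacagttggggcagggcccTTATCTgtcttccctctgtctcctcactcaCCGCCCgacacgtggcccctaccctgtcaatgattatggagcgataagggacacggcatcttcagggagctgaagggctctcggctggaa
LOC105370034: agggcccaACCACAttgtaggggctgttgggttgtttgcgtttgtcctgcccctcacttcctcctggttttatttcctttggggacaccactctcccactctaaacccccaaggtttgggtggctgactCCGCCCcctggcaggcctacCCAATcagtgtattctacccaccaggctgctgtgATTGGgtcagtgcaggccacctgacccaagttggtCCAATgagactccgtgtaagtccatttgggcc
TCF20: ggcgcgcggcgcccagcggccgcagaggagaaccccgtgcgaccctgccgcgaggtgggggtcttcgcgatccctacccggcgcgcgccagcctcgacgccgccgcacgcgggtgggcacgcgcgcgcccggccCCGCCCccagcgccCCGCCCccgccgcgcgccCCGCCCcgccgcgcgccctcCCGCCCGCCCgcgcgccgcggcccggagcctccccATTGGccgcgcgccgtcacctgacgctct
NBEAL2: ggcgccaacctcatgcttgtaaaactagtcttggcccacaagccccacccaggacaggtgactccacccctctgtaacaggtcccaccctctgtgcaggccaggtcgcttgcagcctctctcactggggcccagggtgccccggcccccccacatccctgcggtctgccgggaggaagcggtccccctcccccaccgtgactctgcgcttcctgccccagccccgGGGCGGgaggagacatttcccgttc
MAN2A1-DT: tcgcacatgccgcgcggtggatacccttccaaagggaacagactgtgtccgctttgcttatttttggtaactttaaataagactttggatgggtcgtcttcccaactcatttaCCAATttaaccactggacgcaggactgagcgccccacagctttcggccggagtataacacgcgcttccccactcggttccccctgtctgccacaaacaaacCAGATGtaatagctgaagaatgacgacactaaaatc

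The LOC124901072 sequence (chr5:135134112-135134361, plus strand) lies within both C5orf66 and AC008406.2, in an intron that is first in a transcript of at least 1 of them. Its 2 GATA matches, read on the opposite strand as TTATCT, stand beside 1 SP/KLF match, and 60.4% of its bases are G or C. The qPRO-seq 1M element there was centred 32 bp from the RefSeq start. The LOC105370034 sequence (chr12:121663840-121664089, plus strand) is in the first intron of MORN3 and holds 3 NF-Y matches. Its element lay 5410 bp from the nearest GENCODE start. The TCF20 sequence (chr22:42270654-42270903, minus strand) is the most GC-rich of the 5, at 85.2%, with 5 SP/KLF matches. TCF20 encodes a transcriptional coregulator, and its element was centred 17 bp from the RefSeq start. The NBEAL2 sequence (chr3:46987740-46987989, plus strand) has 67.6% G or C and a single SP/KLF match. NBEAL2 is needed for the alpha granules of platelets. The MAN2A1-DT sequence (chr5:109691100-109691349, minus strand) is the most AT-rich of the 5, with 49.6% G or C and 1 E-box match.

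Over all 90 RefSeq windows touched by a qPRO-seq 1M element, median GC content was 55.5%. Of these windows, 78 were themselves intronic and in the elements' distance band, so the sets below are not fully matched to them. Median GC content was 47% in 1163 intronic windows of that band with no peak in any list, and 66% in 12094 windows at GENCODE starts with a qPRO-seq 1M peak. The observed-to-expected CpG ratio followed the same order, with medians of 0.495, 0.22 and 0.861. GGGCGG was present in 41.1% (31.5 to 51.4%) of the windows with an element, 14.3% of the intronic windows without a peak, 74.2% of the windows at starts and 45% of all 34961 windows. The ETS motif, CCGGAA, was present in 12.2%, 3.7%, 33% and 17.3% in the same order. GATA matches went the other way, with 10% (5.35 to 17.9%) of the windows with an element, 26.8% of those without a peak, 7.08% at starts and 16.3% overall. The AP-1 motif, TGANTCA, was present in 14.4% (8.64 to 23.2%), 11.3%, 4.04% and 7.68%. The E-box was present in 27.8%, 34%, 22.1% and 29.7%, and CCAAT in 32.2%, 33.4%, 36.7% and 34.6%. TGTGGT was present in 14.4%, 18.8%, 8.66% and 13.1%, and the TATA box, TATAAA, in 12.2%, 19.2%, 4.53% and 11.5%. The YY1 motif, AAGATGGC, was present in 5.56%, 0.774%, 5.88% and 2.89%. The KLF1 motif, CCACACCC, was present in 2.22%, 3.27%, 3.07% and 3.29%, and the CREB motif, TGACGTCA, in 0%, 0.344%, 3.57% and 1.85%. These motifs differ in base composition, as do the windows, and the part of base composition in the shares was not tested. A match is not a bound site.

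The elements' share of all peaks was 9.88% (9.52 to 10.3%), 14.7% (14.4 to 15.1%) and 8.01% (7.6 to 8.45%). The qPRO-seq 1M share exceeded the PRO-seq 1M share by 4.83 points (4.31 to 5.34). In numbers, qPRO-seq 1M held 2.3 times the elements of PRO-seq 1M in a list 1.55 times as long, and 4.5 times those of qPRO-seq 250k in a list 2.45 times as long. With each list reduced to its 15562 top-scored peaks, the elements numbered 1047, 1448 and 1247, and qPRO-seq 250k then held more than PRO-seq 1M. Among peaks more than 500 bp from any start, 31%, 32.1% and 30.2% were of this kind in the 3 lists.

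Median score percentile within the list was 31.2, 38.2 and 30.8, against 58.9, 59.9 and 55.7 for peaks within 500 bp of a start. It was 31.3, 39.1 and 33.7 for deeper intronic peaks and 35.7, 39.5 and 38.3 for intergenic peaks within 10 kb of a start, so low scores were shared with other peaks away from starts. The scores are the authors' and are read only within a list. Of the elements, 72.9%, 63.4% and 70.2% lay in the lower-scored 50% of their list, and 2.09%, 4.15% and 3.45% in the top 10%. Median width was 410, 410 and 390 bp. A deposited p of exactly 0 was attached to 17.9%, 17.8% and 18.5% of them. Among peaks within 500 bp of a start the shares were 20.9%, 23.2% and 11.2%. Elements met by no other list had 25.6%, 19.8% and 30.9%, and those met by both others 14.1%, 22% and 16.4%. Such a p could go with a low score, as for the ALAS2 element of PRO-seq 1M at percentile 3.76. In qPRO-seq 1M, 27.7% had a neighbouring peak 20 bp away, the smallest spacing in the list, and 9.08% belonged to a run of peaks at that spacing that reached a start. In PRO-seq 1M these shares were 21.5% and 8.31%, and in qPRO-seq 250k 14.4% and 3.53%.

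Within the band the elements crowded toward the start. The median distance from the nearest start was 1752, 1805.5 and 1728 bp, and 31.6%, 29.8% and 30.9% lay within 1000 bp. Set against the intronic sequence present at each distance, qPRO-seq 1M had 20.4 peak centres per Mb at 500 to 1000 bp, 15.9 at 1000 to 2000 bp, 7.73 at 2000 to 3000 bp and 4.91 at 7500 to 10000 bp. Beyond the band it had 4.15 at 10000 to 20000 bp and 1.88 past 50000 bp. The nearest bin is low by construction, since a peak whose edge comes within 500 bp of a start is no member.

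Near the start, density differed most between starts with and without a peak of their own. At 500 to 1000 bp, qPRO-seq 1M had 153 centres per Mb where the nearest start had a peak within 500 bp and 4.05 where it had none, a ratio of 37.7. That ratio fell to 16 at 1000 to 2000 bp, 6 at 2000 to 3000 bp, 3.57 at 3000 to 5000 bp and 2.27 at 7500 to 10000 bp. PRO-seq 1M went from 37.5 to 2.63 and qPRO-seq 250k from 30.4 to 2.27 across the same bins. Where the nearest start had no peak, density in qPRO-seq 1M stayed between 4.05 and 5.99 per Mb throughout the band. Over the whole band the ratio was 9.33, 8.57 and 10.4. Sequence nearest to a start with a peak made up 9.94%, 11% and 7.69% of the band.

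**Figure D1:**
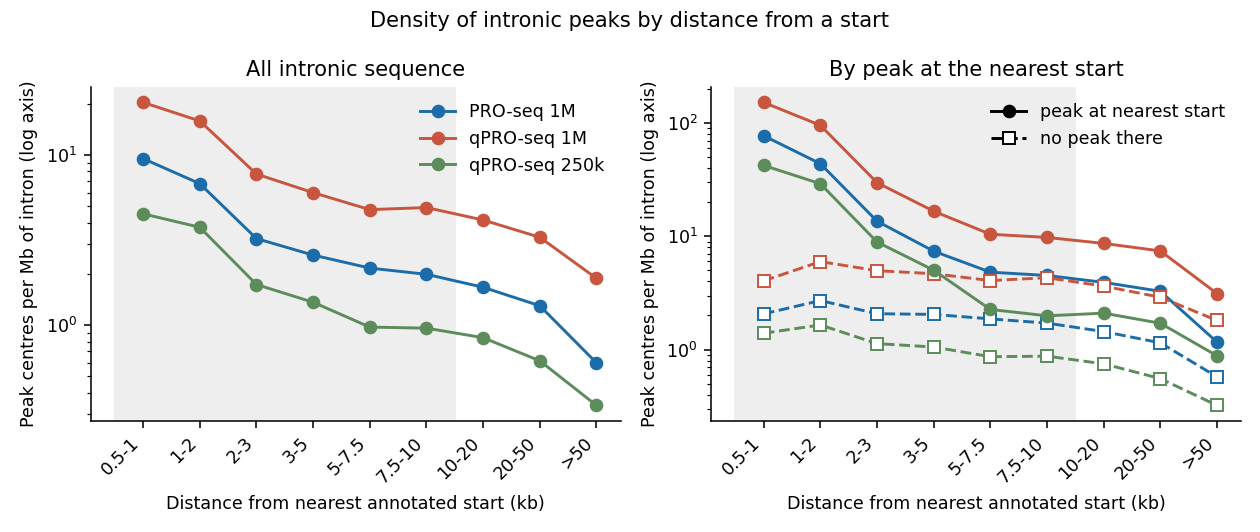
Peak centres per Mb of intronic sequence (log axis) by distance from the nearest annotated start in kb, for the 3 lists, over all intronic sequence (left) and split by whether the nearest start has a peak within 500 bp (right). The grey band holds the elements; in qPRO-seq 1M density falls from 20.4 to 4.91 per Mb across it, and the solid and dashed lines approach each other with distance.

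Close to 50% of the elements had a peak at their nearest start (50.7%, 51.5% and 46.4%). This share depended on distance, and in qPRO-seq 1M it was 80.6% at 500 to 1000 bp, 59.9% at 1000 to 2000 bp, 33.5% at 2000 to 5000 bp and 23.2% at 5000 to 10000 bp. With peaks up to 500 bp apart merged, it was 38.5%, 38.9% and 38.3%. The elements fell into 3 kinds by the start they were nearest to. In qPRO-seq 1M, 60.1% lay downstream of a start of their own host gene, 17.1% lay upstream of an internal start of that gene, and 22.8% were nearest to a start of another gene. The nearest start carried a peak for 65.2% of the first kind, 27.5% of the second and 33.2% of the third. The other lists had 59.4% and 61.5% downstream of an own start.

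First introns held 80.3%, 79.3% and 79.8% of the elements, where an intron that is first in any annotated transcript counts as first. First introns make up 58.3% of the 650 Mb band, so elements were 2.9, 2.73 and 2.82 times as dense there as in later introns. The host gene was protein-coding for 81.6%, 82.7% and 81.2%. By chromosome, chromosome 19 had the highest density in each list, with 8.29, 13.7 and 4.03 elements per Mb of band against 3.76, 8.64 and 1.92 overall.

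Elements of the 2 shorter lists mostly had a counterpart in the longest list, while most elements of the longest list had none in the other two. Of PRO-seq 1M elements, 86.5% (85.1 to 87.8%) met a qPRO-seq 1M peak (1 bp or more in common), and 90.6% of all PRO-seq 1M peaks did. Of qPRO-seq 250k elements, 93.7% (92.3 to 95%) shared a base with a qPRO-seq 1M peak and 78.9% (76.6 to 81.1%) with a PRO-seq 1M peak, where all peaks of that list gave 96.6% and 91.2%. Of qPRO-seq 1M elements, 41.5% (40.2 to 42.8%) shared a base with a PRO-seq 1M peak and 23% (21.9 to 24.1%) with a qPRO-seq 250k peak, against 63.3% and 44.1% of all its peaks. Of PRO-seq 1M elements, 40.6% met a qPRO-seq 250k peak, against 60.2% of all. Elements were below the whole list in each of the 6 directions. So were deeper intronic peaks and intergenic peaks within 10 kb of a start, so this was shared with other peaks away from starts. In qPRO-seq 1M, PRO-seq 1M met 34.5% of the deeper intronic and 46.6% of these intergenic peaks, and qPRO-seq 250k met 19% and 27.5%. Centres were compared only where an element met a single peak of the other list and that peak met no other. In such pairs they lay a median of 40 bp apart in each direction. For the 2113 PRO-seq 1M elements that met a qPRO-seq 1M peak, there were 1561 such pairs. Over all elements that met a peak, the counterpart was itself such an element in 89.6 to 92.4% of cases. Otherwise it was mostly a peak reaching within 500 bp of a start, 5.3 to 8.45% of cases.

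Joining overlapping peaks of all lists gave 5861 regions that held an element and 27840 that held none, including regions at starts. Of the former, 19.8% had a peak in all 3 lists and 51.4% in qPRO-seq 1M alone. Of the latter, 37.7% and 34.3% did, differences of -17.9 points (-19.1 to -16.8) and 17.2 points (15.8 to 18.6). PRO-seq 1M alone held 5.14% of the regions with an element and 6.27% of the others, a difference of -1.14 points (-1.75 to -0.479). For qPRO-seq 250k alone the shares were 0.938% and 1.07%, a difference of -0.128 points (-0.38 to 0.175).

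**Figure D2:**
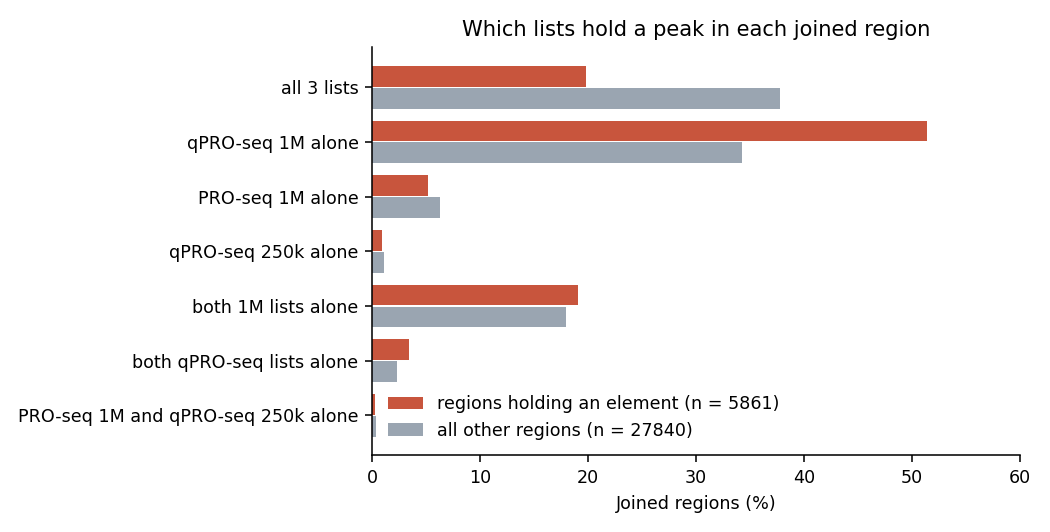
Percent of joined regions by the lists that hold a peak in them, for the 5861 regions holding an element and the 27840 others. The others include regions at starts. Regions with an element are in qPRO-seq 1M alone more often (51.4% against 34.3%) and in all 3 lists less often (19.8% against 37.7%).

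Overlap rose with score. In the lowest-scored 10% of qPRO-seq 1M, 15.8% of elements had a PRO-seq 1M peak, against 9.87% of deeper intronic peaks and 46.8% of peaks at starts. In the fifth group these were 43.4%, 30.7% and 75%, and in the top group 94%, 94.2% and 99.8%. Compared within score groups, qPRO-seq 1M elements were overlapped by PRO-seq 1M more often than deeper intronic peaks by 8.39 points (6.41 to 10.3), less often than intergenic peaks within 10 kb of a start (difference -3.335 points, -5.17 to -1.51), and less often than peaks at starts (difference -26.2 points, -27.5 to -24.9). Against qPRO-seq 250k the first 2 differences were 5.43 points (3.77 to 6.97) and -2.66 points (-4.28 to -1.09). For PRO-seq 1M elements overlapped by qPRO-seq 1M the interval held 0 in each case: 0.793 points (-1.52 to 3.52) from deeper intronic and -0.19 points (-2.13 to 1.85) from intergenic peaks. From peaks at starts it was 0.798 points (-0.632 to 1.61), where the difference without the score groups was -5.76 points (-7.22 to -4.4). The difference from deeper intronic peaks was -9.27 points with lists of equal length, -2.31 points where 50% of both peaks had to be shared and -0.722 points with protein-coding starts only. Its sign turned in those 3 settings.

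**Figure D3:**
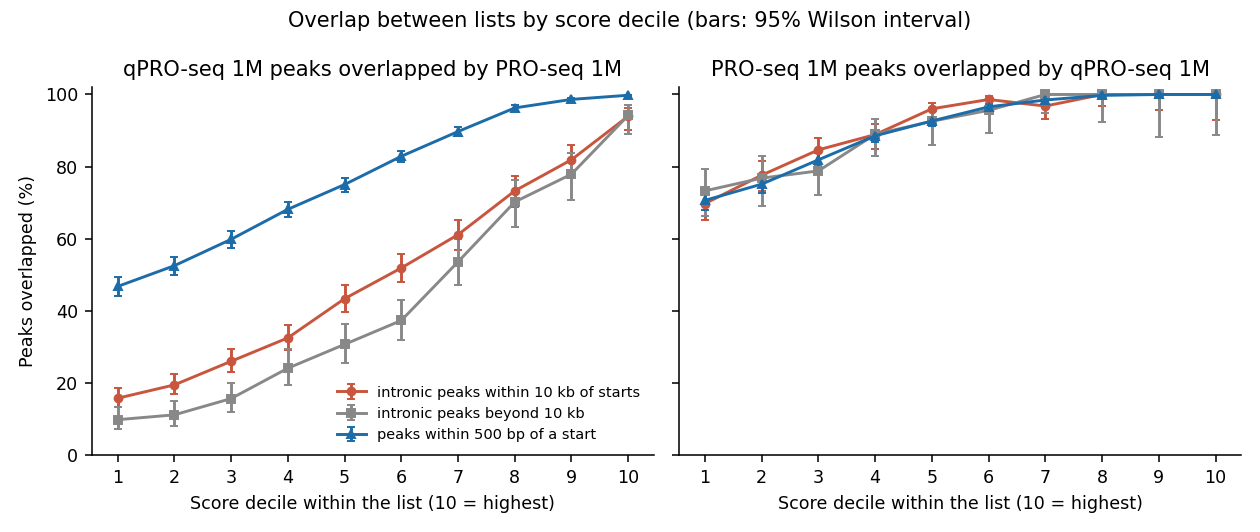
Percent of peaks met by 1 bp or more of the other 1M list, by score group within the list (10 is highest), for the elements, deeper intronic peaks and peaks within 500 bp of a start; bars are 95% Wilson intervals. In qPRO-seq 1M (left) elements rise from 15.8% to 94%, with 43.4% against 30.7% of deeper intronic peaks in the fifth group; the right panel shows PRO-seq 1M.

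Elements of qPRO-seq 1M near a start that had a peak were also met more often by PRO-seq 1M. Within score groups, those whose nearest start had a peak exceeded those without by 7.04 points (4.74 to 9.29), and those within 1000 bp of a start exceeded those beyond 5000 bp by 10 points (6.7 to 13.2). Against qPRO-seq 250k the same differences were 7.48 points (5.54 to 9.38) and 10.2 points (7.48 to 12.8). In the other lists this was mostly not seen. Start peak against none gave -1.71 points (-4.38 to 0.961) for PRO-seq 1M elements met by qPRO-seq 1M. Elements of qPRO-seq 250k gave -1.95 points (-6.45 to 2.42) against PRO-seq 1M and -1.15 points (-4.35 to 1.84) against qPRO-seq 1M. PRO-seq 1M elements met by qPRO-seq 250k were the exception, with 5.83 points (2.31 to 9.26). Within 1000 bp against beyond 5000 bp, the interval held 0 in all 4 of these directions, with differences from -4.47 to 2.38 points. In qPRO-seq 1M, first and later introns differed by 3.81 points (0.964 to 6.52) against PRO-seq 1M and by 1.62 points (-0.952 to 3.83) against qPRO-seq 250k. Elements of qPRO-seq 1M with no counterpart, 3033 or 54% of them, had a median score percentile of 26.3 and a median width of 370 bp. The 1039 with a peak in both other lists had 70.2 and 520 bp. For all qPRO-seq 1M peaks, the share with no counterpart in either list was not calculated. PRO-seq 1M peaks met 63.3% of all qPRO-seq 1M peaks, 41.5% of its elements and 34.5% of its deeper intronic peaks. For qPRO-seq 250k these shares were 44.1%, 23% and 19%.

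Most top-scored elements had no peak at the nearest start. In the top 10% of the qPRO-seq 1M list there were 233 elements, of which 102 (43.8%) had a start peak and 193 had a peak in both other lists. Other top-scored peaks were also mostly shared. In this group PRO-seq 1M met 94% of elements, 94.2% of deeper intronic peaks and 99.8% of peaks at starts. For qPRO-seq 250k these shares were 84.1%, 81.9% and 97.6%. The highest score of an element in qPRO-seq 1M, 1.52, was at chr1:15885941-15886780 in the first intron of SPEN. It lay 9365 bp from an internal SPEN start without a peak, while SPEN as a gene had a start peak in each list. SPEN encodes a transcriptional repressor of the Notch and nuclear receptor pathways. Its counterparts scored 1.18 in PRO-seq 1M and 1.15 in qPRO-seq 250k, at percentiles 98.3 and 99.6. The next was at chr1:202531391-202532320 in PPP1R12B, a myosin phosphatase subunit, with percentiles of 98.5, 100 (rounded) and 67.2. The MAP4 element at chr3:47961871-47962720, in the gene of a microtubule-associated protein, had 85.8, 100 and 43.2. The PPP1R12B and MAP4 elements were nearest to a start of another gene. In ELOVL6, a fatty acid elongase, the element at chr4:110193771-110194250 had 84.8, 100 and 17.1, and it alone of these 5 had a peak at its nearest start. The NUP214 element at chr9:131137581-131138130, in a nuclear pore gene, led the elements of PRO-seq 1M with a score of 1.34 and stood at percentile 41.6 in qPRO-seq 250k. These 5 were chosen for their qPRO-seq 1M score, so their percentiles in the other lists, which differ in length, are a description only.

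PRO-seq 1M's other leading elements were in LINC02579 (score 1.27) and in POLR3E (1.22), which encodes a subunit of RNA polymerase III. The leading qPRO-seq 250k elements were in VMP1 (1.19), an autophagy gene, in GMPR (1.15), a purine enzyme, and in SPEN. The VMP1 element was at percentiles 88, 99.5 and 99.8, and that in GMPR at 98.3, 98.8 and 99.6. Both were nearest to a start of another gene.

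The top-scored elements without a counterpart were well scored in qPRO-seq 1M and less so in the other lists. In qPRO-seq 1M the top 3 were in DYDC2 (score 1.16), LINC01708 (1.08) and PFKP (1.07), a phosphofructokinase gene, and the nearest PRO-seq 1M peaks were 48841, 45851 and 26251 bp away. None of their nearest starts had a peak. PRO-seq 1M's were in E2F2 (0.792), a cell cycle transcription factor, BICRAL (0.781) and TEN1 (0.725). The BICRAL peak was directly adjacent to a qPRO-seq 1M peak, with no base in common. In qPRO-seq 250k they were in ZFHX3 (0.606), LINC02252 (0.52) and RECQL (0.513), at percentiles of 56.9, 42.5 and 41.4. The LINC02252 peak lay 61 bp from a qPRO-seq 1M peak and 421 bp from a PRO-seq 1M peak. At the rule's outer edge, the farthest qPRO-seq 1M element, in AC091180.5, was 10000 bp from a start, at score percentile 22.9. In qPRO-seq 1M, intronic peaks 400 to 500 bp from a start numbered 526 with a median percentile of 36.7, and those at 500 to 600 bp numbered 470 with 34.9. At the outer limit, 163 elements at 9000 to 10000 bp had a median percentile of 38.2, and 170 intronic peaks at 10000 to 11000 bp had 38.6.

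Among 19864 protein-coding genes, 8.2%, 16.3% and 4.56% hosted an element. Of genes with a start peak (52.9%, 54.5% and 44% of all), 12.5%, 24.2% and 7.5% did, and of genes without one 3.4%, 6.87% and 2.26%. Genes with a start peak were also longer, with a median of 34457 bp against 17729 bp in qPRO-seq 1M. Most hosts had a single element, 2176 of 3244 in qPRO-seq 1M, and 0.408%, 1.93% and 0.116% of all genes hosted 3 or more. The most were in KSR1, a scaffold of the MAP kinase pathway, with 4, 10 and 1. GSE1 had 5, 9 and 2, ANXA4, an annexin, had 4, 9 and 0, BCOR, a corepressor, had 6, 8 and 1, and WNT5B, a Wnt ligand, had 2, 8 and 2.

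Erythroid transcription factors hosted elements most often of the 11 gene lists. Of 20 listed, 11 (55%, 34.2 to 74.2%), 14 (70%, 48.1 to 85.5%) and 7 (35%, 18.1 to 56.7%) hosted one. Of these 20 genes 19 had a start peak in each 1M list, and their median length was 35786.5 bp. BCR-ABL1 and STAT5 signalling genes, the pathway of the fusion kinase that K562 carries, hosted one in 5, 9 and 3 of 18, and their median length was 68539 bp. Red cell membrane genes had 7, 7 and 4 of 24, haem and iron genes 4, 7 and 2 of 25, globin genes and their regulators 3, 3 and 2 of 12, and glycolysis genes 2, 5 and 1 of 19. Erythroid markers, which share genes with these lists, had 3, 4 and 1 of 12. Megakaryocyte markers had 0, 3 and 0 of 16, myeloid markers 0, 1 and 0 of 15, lymphoid markers 0, 2 and 0 of 18, and cyclins with their kinases 1, 1 and 1 of 22. The part of gene length and start peaks in these shares was not tested.

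**Figure D4:**
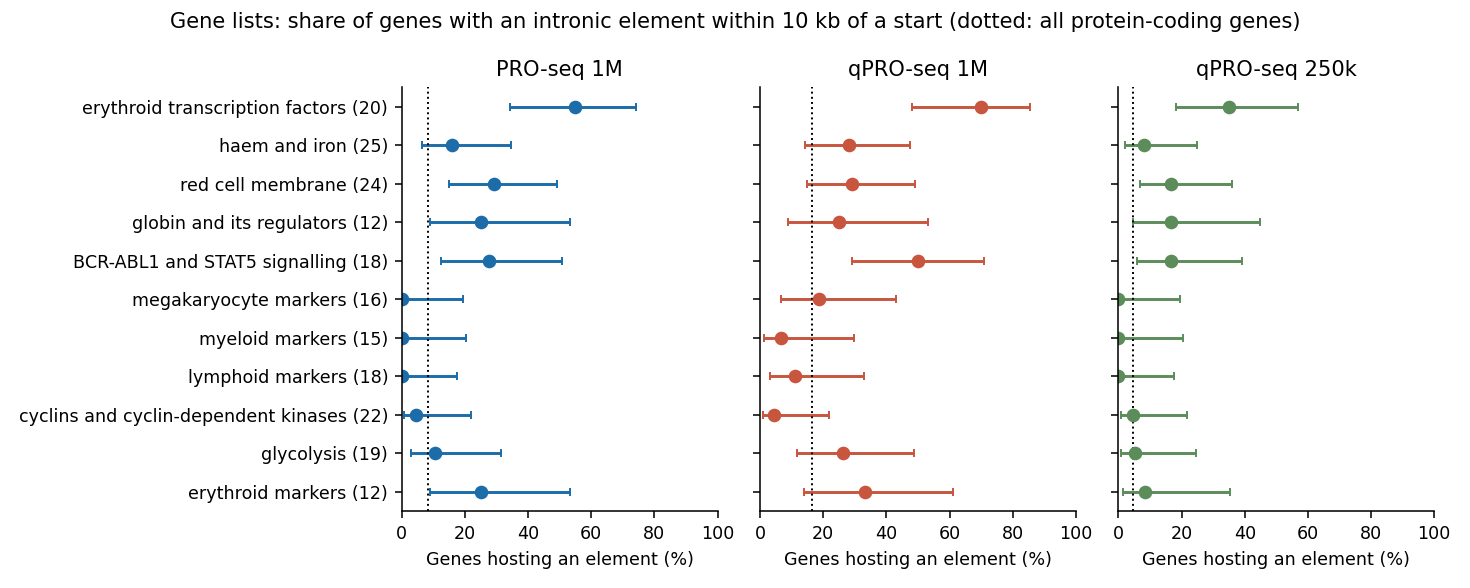
Percent of the genes of 11 lists (number of genes in parentheses) that host an element in each peak list, with 95% Wilson intervals; the dotted line is the share among all 19864 protein-coding genes (8.2%, 16.3% and 4.56%). Erythroid transcription factors lie at 55%, 70% and 35%.

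Single loci show how the lists placed the same element. The loci are a selection, and 18.5% of all qPRO-seq 1M elements had a peak in both other lists. GATA2, a factor of early blood progenitors, had 1 element in each list in intron 4: 128483031 to 128483590, 128482841 to 128483610 and 128483031 to 128483550 on chromosome 3. Their score percentiles were 52.3, 75.7 and 3.8. The nearest start is an internal GATA2 start without a peak. MYB, a progenitor factor that falls during erythroid maturation, had an element in its first intron at chr6:135183701-135184430 in qPRO-seq 1M, with percentiles of 65.3, 81.5 and 5.2. SOX6, a repressor of embryonic globin, had one at chr11:16604251-16604720 with 83.5, 77.3 and 84.5, which was high in each list. RUNX1, a haematopoietic factor, had one at chr21:35051221-35051670 with 19.2, 91.2 and 51.8. CBFA2T3, a corepressor bound to TAL1 complexes, had one at chr16:88972831-88973370 with 82.2, 77.9 and 7.5. IKZF1, which encodes Ikaros, had elements in its first intron in all 3 lists while its nearest starts had no peak. The best scored lay at chr7:50359951-50360410 in qPRO-seq 1M, with 40.1, 74.9 and 55.3.

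Other erythroid factors hosted an element in fewer lists. GATA1, the master regulator of the lineage, and KLF1, an activator of adult globin, hosted 1 each, in qPRO-seq 1M alone, at percentiles 37.4 and 16.7. A peak of 1 other list overlapped the KLF1 element, and none overlapped the GATA1 element. FOXO3, a factor of late erythroid maturation, had 1, 2 and 0. GFI1B, a repressor needed in red cells and platelets, had an element with a counterpart in both 1M lists, at 48 in PRO-seq 1M and 17.1 in qPRO-seq 1M.

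Among red cell membrane genes, ANK1, which encodes the ankyrin that ties spectrin to the membrane, had 5, 6 and 2 elements. TMOD1, which caps the actin of the red cell skeleton, had 3, 2 and 1. Its top element, at chr9:97503211-97503980 in qPRO-seq 1M and percentile 98.9, was 1 peak there and was covered by 2 neighbouring peaks at 19.8 and 70.3 in PRO-seq 1M, so counts of elements depend on how a stretch was divided into peaks. AQP1, the water channel, had 1 in each list at percentiles of 62.4, 76.7 and 44.2. For iron, the transferrin receptor gene TFRC had an element 2680 bp from its start in qPRO-seq 1M at percentile 60.7 and one at 21.1 in PRO-seq 1M, and the mitochondrial iron importer gene SLC25A37 had 1, 3 and 1.

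In the signalling list, STAT5B had an element at chr17:42266751-42267470 with percentile 98.7 in qPRO-seq 1M and 57.7 in qPRO-seq 250k, where PRO-seq 1M had 2 peaks at 46.9 and 45.9. GAB2, an adaptor of the fusion kinase, had 4, 5 and 2, and the adaptor GRB2 2, 3 and 1. PKM, the last enzyme of glycolysis, had one at chr15:72226641-72227340 with 78.9, 98.3 and 5. CCND3, a cyclin of erythroid division, had one at chr6:42028361-42029030 with 66.8, 91.6 and 71.5.

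NPRL3, whose introns hold the distal alpha-globin enhancers, had 1, 4 and 0 elements. Beta-like globin assignments are uncertain. The elements placed in HBG2 and HBE1 lie in introns of long annotated transcripts that span neighbouring genes. HBG2 has a near-identical copy, so reads in the copied stretch may have been split or lost. Whether that touches the elements placed here was not tested. The 1 element found in all 3 lists, at chr11:5275791-5276110 in qPRO-seq 1M, had percentiles of 40.9, 37.9 and 27.2. The lymphoid genes LCK and EBF1 hosted 1 element each, in qPRO-seq 1M alone, at percentiles of 14.5 and 1.1.

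**Figure D5:**
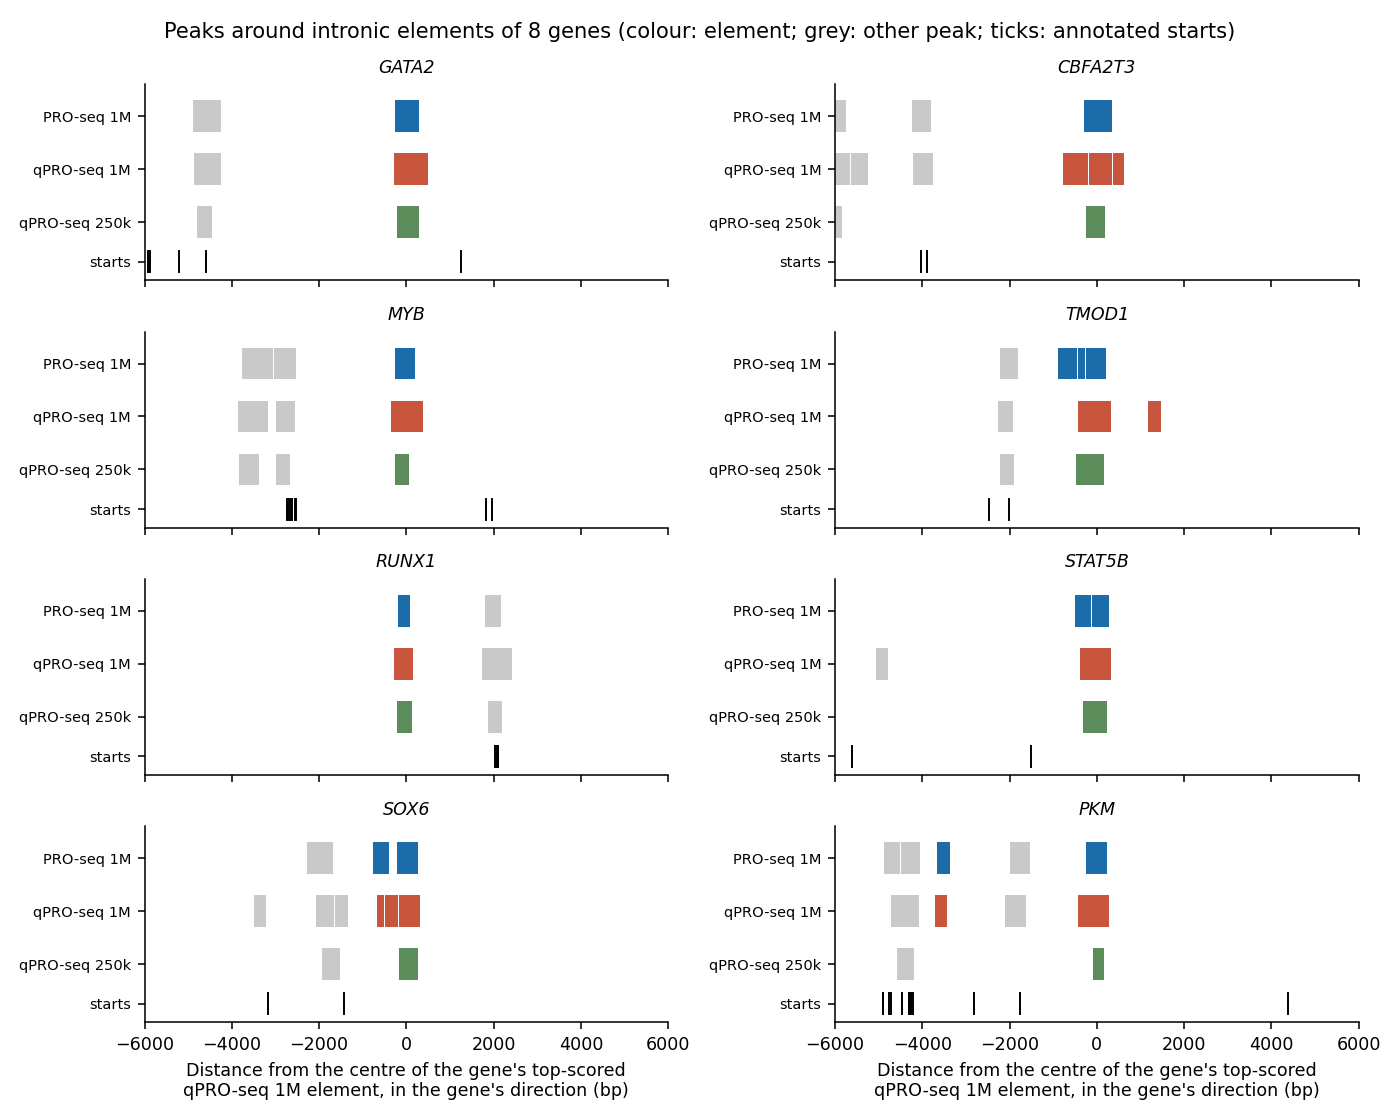
Peaks around the top-scored qPRO-seq 1M element of 8 genes, in the gene's direction, with 0 at that element's centre; coloured bars are elements, grey bars other peaks and ticks annotated starts. The 8 genes are a selection in which the 3 lists all place an element at the centre. Of all qPRO-seq 1M elements, 18.5% had a peak in both other lists. The lists divide some elements differently. In TMOD1 and STAT5B 2 PRO-seq 1M peaks meet 1 qPRO-seq 1M peak, and in CBFA2T3 and SOX6 2 qPRO-seq 1M peaks meet 1 PRO-seq 1M peak.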

How the data were processed

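Peak lists from 6 K562 libraries, 2 per group, were used as the authors deposited them, as 1 list per group. Per the file contents, each peak has a position, a dREG score, a p-value that is below 0.05 throughout and a centre; scores and p-values are the authors' deposited values. The submitters' processing notes name fastp 0.20.0, Bowtie2 2.3.5.1, deepTools 3.1.3, UMI-tools and the build hg38 (GRCh38), with no role or order. How replicates were pooled, and the settings of dREG, are not given in the sources used here. Positions count from 1. Peaks on other sequences (75, 220 and 44) were left out. Classes came from the 58121 genes and 187742 start positions of GENCODE 29. Shares have 95% Wilson and differences Newcombe intervals, and score-adjusted differences are averaged over 10 score groups. Overlap means at least 1 bp. The calculations (Python 3.11.15, pandas 2.3.3) were tested on simulated data. Each list's 3 top-scored elements, the 3 top-scored without a counterpart, the 5 top-scored qPRO-seq 1M elements found in both other lists, the qPRO-seq 1M element farthest from a start, the 5 top hosts and at most 8 hosts per gene list are named; 1 further element that the rule names is not reported here. Single-locus values are the authors' positions. RefSeq windows on chromosome 8 were not considered for printed sequences, which replace the planned windows about peak centres because no genome sequence was used here. Members and lists were chosen with earlier results of these data known. Depth is unknown, so precision is set by the number of peaks.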

Additional observations from a re-analysis of the deposited data

How the results depend on the processing

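No paired analysis was possible because each group has 1 list for both replicates, and for the same reason no replicate could be left out. The shares of windows about each peak with a GATA motif were not run, since no genome sequence was used here. In the 6 alternatives run on them, the order of the lists in number and in share of elements was as reported, except that at equal list lengths qPRO-seq 250k exceeded PRO-seq 1M. The overlap difference of PRO-seq 1M elements from deeper intronic peaks, whose interval held 0, turned sign in 3 alternatives. Values outside the main 95% interval, or counts beyond 1.5 times, follow, and the cause was not tested. Values are in the order PRO-seq 1M, then qPRO-seq 1M, then qPRO-seq 250k where 3 are given. With peaks of deposited p up to 0.01, which keeps those with a p of exactly 0, the share of the list was 8.85%, 13.7% and 7.01%. The share overlapped was 84.6% (PRO-seq 1M elements met by qPRO-seq 1M), 36.9% (PRO-seq 1M elements met by qPRO-seq 250k), 40.2% (qPRO-seq 1M elements met by PRO-seq 1M), then 20.6% (qPRO-seq 1M elements met by qPRO-seq 250k). The share with a start peak was 48.3%, 49.2% and 42.4%. The share of protein-coding genes hosting an element was 6.56%, 13.5% and 3.32%. With each list reduced to its 15562 top-scored peaks, the number of elements was 1047 (PRO-seq 1M) and 1448 (qPRO-seq 1M). The share of the list was 6.73% (PRO-seq 1M) and 9.3% (qPRO-seq 1M). The share overlapped was 69.1% (PRO-seq 1M elements met by qPRO-seq 1M), 60.6% (PRO-seq 1M elements met by qPRO-seq 250k), 50.8% (qPRO-seq 1M elements met by PRO-seq 1M), 50.8% (qPRO-seq 1M elements met by qPRO-seq 250k), 56.4% (qPRO-seq 250k elements met by PRO-seq 1M), and finally 63.8% (qPRO-seq 250k elements met by qPRO-seq 1M). Against deeper intronic peaks the overlap difference was -9.27 points (PRO-seq 1M elements met by qPRO-seq 1M). Against intergenic peaks the overlap difference was -5.95 points (qPRO-seq 1M elements met by PRO-seq 1M). The share with a start peak was 42.1% (PRO-seq 1M) and 34.6% (qPRO-seq 1M). The first-intron share was 78.1% (qPRO-seq 1M). The share of protein-coding genes hosting an element was 3.997% (PRO-seq 1M) and 5.49% (qPRO-seq 1M). With an inner limit of 1000 bp, the share of the list was 6.76%, 10.3% and 5.54%. The share overlapped was 39.6% (qPRO-seq 1M elements met by PRO-seq 1M), then 21.6% (qPRO-seq 1M elements met by qPRO-seq 250k). Against deeper intronic peaks the overlap difference was 5.6 points (qPRO-seq 1M elements met by PRO-seq 1M), then 3.25 points (qPRO-seq 1M elements met by qPRO-seq 250k). The share with a start peak was 37.8%, 39.1% and 34.9%. The first-intron share was 74.3%, 74.2% and 74.4%. The share of protein-coding genes hosting an element was 5.54%, 11.5% and 3.03%. With starts of protein-coding genes only, the share of the list was 8.22%, 12.2% and 6.77%. Against deeper intronic peaks the overlap difference was 6.24 points (qPRO-seq 1M elements met by PRO-seq 1M). Against intergenic peaks the overlap difference was -4.39 points (qPRO-seq 1M elements met by qPRO-seq 250k). The share with a start peak was 61.8%, 62% and 56.1%. The first-intron share was 84.3%, 83.2% and 84%. The share of protein-coding genes hosting an element was 15.7% (qPRO-seq 1M). With peaks up to 500 bp apart merged, the share overlapped was 37.9% (qPRO-seq 1M elements met by PRO-seq 1M), then 20.7% (qPRO-seq 1M elements met by qPRO-seq 250k). Against deeper intronic peaks the overlap difference was 4.92 points (qPRO-seq 1M elements met by PRO-seq 1M), then 2.73 points (qPRO-seq 1M elements met by qPRO-seq 250k). The share with a start peak was 38.5%, 38.9% and 38.3%. The first-intron share was 76.9% (PRO-seq 1M) and 76.2% (qPRO-seq 1M). The share of protein-coding genes hosting an element was 6.28%, 12.5% and 3.87%. Counting only peaks that share at least 50% of both lengths, the share overlapped was 75% (PRO-seq 1M elements met by qPRO-seq 1M), 33.5% (PRO-seq 1M elements met by qPRO-seq 250k), 32.6% (qPRO-seq 1M elements met by PRO-seq 1M), 17.1% (qPRO-seq 1M elements met by qPRO-seq 250k), 68.1% (qPRO-seq 250k elements met by PRO-seq 1M), and finally 79.8% (qPRO-seq 250k elements met by qPRO-seq 1M). Against deeper intronic peaks the overlap difference was -2.31 points (PRO-seq 1M elements met by qPRO-seq 1M), 4.4 points (qPRO-seq 1M elements met by PRO-seq 1M), then 2.86 points (qPRO-seq 1M elements met by qPRO-seq 250k). Without adjustment for score, the overlap difference from intergenic peaks was -4.53 points (qPRO-seq 1M elements met by qPRO-seq 250k). Without elements in a run reaching a start peak, an alternative chosen after seeing the data, the share of the list was 9.06% (PRO-seq 1M) and 13.4% (qPRO-seq 1M). The share overlapped was 40.1% (qPRO-seq 1M elements met by PRO-seq 1M), then 21.6% (qPRO-seq 1M elements met by qPRO-seq 250k). The share with a start peak was 46.4% (PRO-seq 1M) and 46.7% (qPRO-seq 1M). The first-intron share was 78.1% (qPRO-seq 1M). The share of protein-coding genes hosting an element was 7.5% (PRO-seq 1M) and 14.8% (qPRO-seq 1M). Depth is unknown, and an element that a list does not hold is not shown to be absent.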
